A study of Mus musculus with 6 samples.

Results

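Bone morphogenetic protein (BMP) signalling was examined in mouse colon through 9 genes: the ligands Bmp2, Bmp3, Bmp4, Bmp5 and Bmp7, the secreted antagonists Grem1, Nog and Chrdl1, and the target gene Id1. They were taken as a named list, chosen with earlier results of these data known, and all 9 were found on the array through the RefSeq accession of their probes, with 16 probes of the 33767 named probes (23462 genes). The arrays compared colon of 3 male Islr knockout mice with that of 3 male control mice, 1 array per animal. The label for the sample source gives 3.5% dextran sulfate sodium (DSS), which injures the colonic epithelium, in the water for 5 days and then 1 day of recovery, for controls and knockouts alike, whereas the treatment field states no treatment. Islr codes for a leucine-rich repeat protein that cells secrete. The design text adds that samples were flow separated into TRIzol, and names no sorted cell population. The labels give no age and no strain, and do not say how or in which cells Islr was deleted.

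BMPs are secreted dimeric growth factors of the TGF-beta superfamily. They bind paired type I and type II receptors, which phosphorylate the receptor SMADs, and these enter the nucleus with Smad4 and switch on targets such as the Id genes and the feedback inhibitor Smad6. In the colon, fibroblasts near the upper crypt are known as a main source of BMP ligands, which favour differentiation of epithelial cells, while stromal cells below the crypt base secrete antagonists such as Gremlin 1 that protect the stem cell zone.

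In colon of Islr knockouts the ligands Bmp4, Bmp5 and Bmp7 were lower than in controls, by 4.0-fold to 6.26-fold at the 1 probe of each that passed the test. The brighter Bmp4 probe was only 1.46-fold lower with all spots kept and did not pass. The brightest and dimmest Bmp5 probes were also lower but did not pass with outlier spots removed. Bmp2, Bmp3, Nog and Chrdl1 did not pass. Grem1 and Id1 had too many spots marked as outliers by the scanner software to be tested with those spots removed; with them kept, Grem1 was 1.96-fold lower and did not pass, and Id1 was 2.64-fold higher and passed. At the 5% false discovery rate used throughout (limma, adjusted over all tested probes), 3 of the 6 member genes tested had a probe called lower and 0 had one called higher (0 also at an unadjusted p under 0.05). Over all named genes tested, 3.20% had a probe called lower and 1.81% one called higher; as the members were chosen with earlier results known, their higher share is a description only. With outlier spots kept all 9 members could be tested, 3 were called lower and 1 higher, against 3.62% and 2.40% of named genes. The count of 3 changed when single arrays were left out: 0 members were called when control 2, control 3 or knockout 3 was missing, 1 when control 1 was missing, 2 when knockout 2 was missing and 3 when knockout 1 was missing.

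All values are log2 signals after division by the 75th percentile of their own array, so that 0 is that percentile, and differences are knockout minus control on that scale. Values of a group stand in the order of replicates 1, 2 and 3, numbers that only name animals and pair none. That percentile was 4910 to 7110 intensity units per array, between 69.4% and 75.4% of spots were well above background, and 3.26% to 16% were outlier spots, with the highest shares on knockout replicate 1 and control replicate 1 (13.6%). Every member probe was well above background on all 6 arrays. Islr, which checks the labels, gave 1.57, 1.24 and 1.21 (controls) against -1.40, -0.93 and -1.31 (knockouts). The spot of control 1 was an outlier; without it the difference was -2.44 (limma adjusted p 0.0171), and with it -2.55 (limma adjusted p 0.00741). With that spot removed, the call was lost when knockout 3 was left out (-2.39, limma adjusted p 0.0580), and no fit was possible when control 2 or control 3 was left out. With it kept, the call held in all 6 fits that left out an array. Since the controls shared one row of array positions and the knockouts the other, position on the slide and genotype cannot be told apart.

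RefSeq sequences upstream of the start were at hand for 3 of the members, Bmp4, Bmp5 and Grem1. They are shown to set side by side the starts of members that were lower on every knockout array than on any control array. Each is the 250 bases before the annotated start on GRCm38.p6, 5′ to 3′ on the gene's strand: Bmp4 at chr14:46390670-46390919 (minus strand), Bmp5 at chr9:75775115-75775364 (plus strand) and Grem1 at chr2:113758649-113758898 (minus strand). Capitals mark matches on either strand to the GC box (GGGCGG), the CCAAT box (CCAAT), the GC element bound by SMAD1 and SMAD5 (GGCGCC) and the TEAD element (GGAATG).
Bmp4: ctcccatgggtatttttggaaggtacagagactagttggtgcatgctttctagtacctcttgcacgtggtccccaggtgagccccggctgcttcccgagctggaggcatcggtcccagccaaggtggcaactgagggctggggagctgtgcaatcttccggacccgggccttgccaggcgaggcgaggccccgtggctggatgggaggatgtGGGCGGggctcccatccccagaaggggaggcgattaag
Bmp5: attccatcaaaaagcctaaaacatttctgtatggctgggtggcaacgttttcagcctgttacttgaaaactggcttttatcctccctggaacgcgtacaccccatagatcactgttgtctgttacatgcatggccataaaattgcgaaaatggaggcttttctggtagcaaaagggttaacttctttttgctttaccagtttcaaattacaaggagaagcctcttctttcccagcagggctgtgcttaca
Grem1: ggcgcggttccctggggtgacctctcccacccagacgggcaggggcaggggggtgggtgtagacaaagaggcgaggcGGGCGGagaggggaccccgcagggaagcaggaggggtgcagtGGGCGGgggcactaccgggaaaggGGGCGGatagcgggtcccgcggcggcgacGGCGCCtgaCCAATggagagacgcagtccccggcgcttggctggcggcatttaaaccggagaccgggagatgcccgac

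No motif was in all 3 windows. The Bmp4 window held 1 GC box, 38 bases before the start, and the Grem1 window held 3, the farthest at 173 bases. Grem1 also had the SMAD1/5 element at 78 bases and a CCAAT box at 69 bases, which do not overlap, and the Bmp5 window held no match to any of these letters. Among 32851 upstream windows of the same length, 32.7% held a GC box, 33.8% a CCAAT box, 9.59% the SMAD1/5 element and 12.6% the TEAD element, which was in none of the 3 windows. A match is a run of letters and was not tested as a binding site.

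Bmp7, a ligand of the Bmp5 and Bmp6 branch of the family, gave the lowest p among the members. Its probe (A_52_P278354) gave 1.45, 1.35 and 1.21 (controls) against -1.87, -0.75 and -0.68 (knockouts). The highest knockout lay below the lowest control, and the controls lay close together while knockout replicate 1 was the lowest array. Means were 1.34 ± 0.12 and -1.10 ± 0.67 (SD, n = 3 each), a difference of -2.43 (SE 0.33), or 5.41-fold lower, with a limma adjusted p of 0.0277. No spot of this probe was an outlier. The difference was -2.64 to -2.05 when 1 array was left out. The call was kept in 3 of these 6 fits and lost when control 2 (limma adjusted p 0.0771), control 3 (0.0733) or knockout 3 (0.0580) was left out.

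Bmp5 was represented by 3 probes, all of them lower in every knockout than in any control. The probe of middle brightness (A_51_P516637) gave -0.44, -0.62 and -0.56 (controls) against -4.36, -2.89 and -2.32 (knockouts). Its difference was -2.65 (SE 0.49), or 6.26-fold lower, with a limma adjusted p of 0.0435. The brightest probe (A_65_P06881) gave 0.92, 0.61 and 0.67 (controls) against -2.57, -1.08 and -0.65 (knockouts). Control replicate 1 had an outlier spot at this probe and at the dimmest one (A_52_P118356), which left 2 usable controls. Without that spot the differences were -2.07 (SE 0.57, limma adjusted p 0.0929) and -2.35 (SE 0.60, limma adjusted p 0.0820); with it kept they were -2.17 and -2.39, with limma adjusted p of 0.0519 and 0.0479. The 3 probes gave differences of like size; with that spot kept the dimmest one passed the threshold, the brightest stayed just above it, and A_51_P516637, which had no outlier spot, was called either way. The call at A_51_P516637 was kept in 1 of the 6 fits with an array left out, that without knockout replicate 1 (-2.06, limma adjusted p 0.0403). It was lost when control 1 (0.0579), control 2 (0.111), control 3 (0.110), knockout 2 (0.0570) or knockout 3 (0.0624) was left out.

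Bmp4, the ligand most often used as a marker of crypt-top and villus stroma, was lower at both of its probes, but by unequal amounts. At the dimmer probe (A_51_P383741) the signal was 1.32, 1.46 and 1.34 (controls) against -1.44, -0.09 and -0.35 (knockouts). Means were 1.37 ± 0.076 and -0.63 ± 0.71 (SD, n = 3 each), a difference of -2.0 (SE 0.35), or 4.0-fold lower, with a limma adjusted p of 0.0395. At the brighter probe (A_55_P2154387) the signal was 2.38, 2.30 and 2.53 (controls) against 1.64, 1.87 and 2.08 (knockouts). Here control replicates 1 and 2 and knockout replicate 1 were outlier spots, so the probe could not be tested with them removed; with them kept the difference was -0.55 (SE 0.17, limma adjusted p 0.106), or 1.46-fold lower. The groups did not overlap at either probe, and knockout replicate 1 was the lowest array at both. The probes carry the same RefSeq accession (NM_007554), and the size of the Bmp4 difference therefore depended on the probe. The call at the dimmer probe was lost when control 1 (limma adjusted p 0.0502), control 2 (0.110), control 3 (0.103) or knockout 3 (0.0844) was left out, with differences of -2.27 to -1.59 over all 6 such fits.

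**Figure D1:**
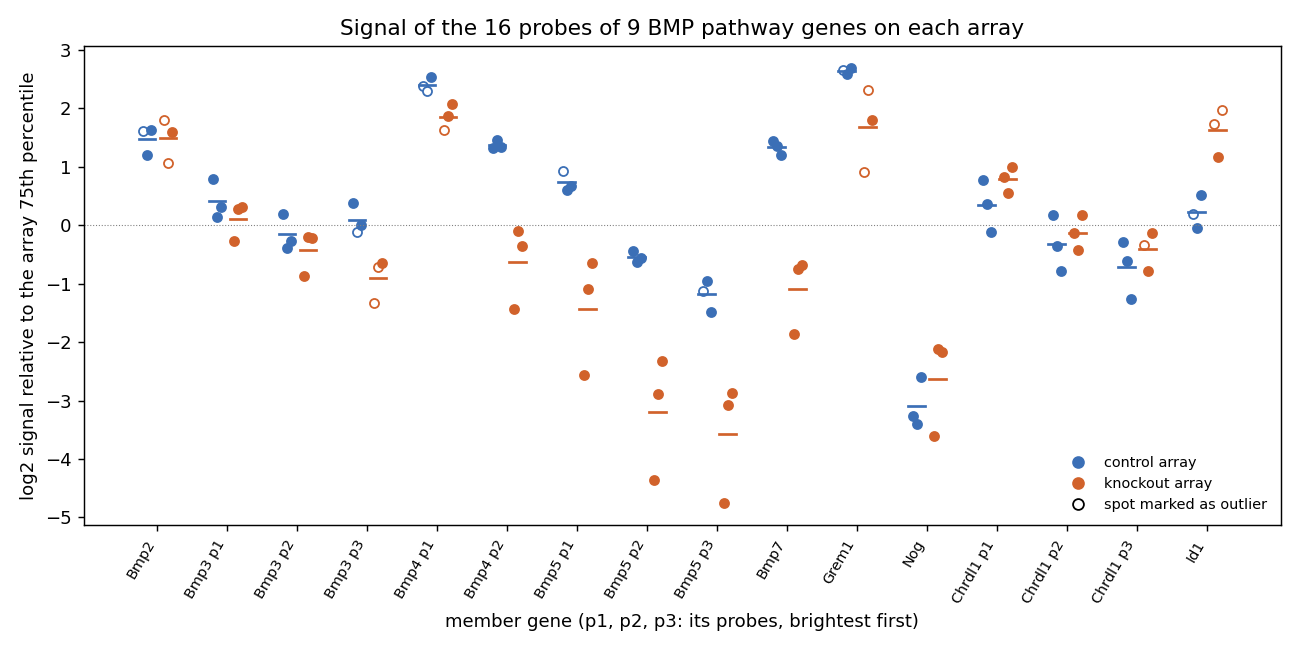
Log2 signal over the array's own 75th percentile (vertical axis) of the 16 member probes (horizontal axis; p1 to p3 are probes of 1 gene, brightest first) in 3 control and 3 knockout arrays; points are arrays, open points are spots marked as outliers and lines are means of 3 arrays. The knockouts lie below all controls at both Bmp4 probes, at all 3 Bmp5 probes, at 1 Bmp3 probe, at Bmp7 and at Grem1, and above them at Id1.

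Bmp2, a close relative of Bmp4, and Bmp3, an atypical ligand known to oppose other BMPs, showed no called change. Bmp2 (A_55_P2041961) gave 1.61, 1.21 and 1.63 (controls) against 1.81, 1.06 and 1.60 (knockouts), so the groups overlapped. It had 3 outlier spots, and with them kept the difference was 0.01 with a 95% confidence interval of -0.57 to 0.59 (limma adjusted p 0.985). Bmp3 is known to be expressed in colon epithelium. Its brightest probe (A_52_P207303) gave 0.80, 0.15 and 0.32 (controls) against -0.27, 0.27 and 0.31 (knockouts), a difference of -0.32 with a 95% interval of -0.91 to 0.27 (limma adjusted p 0.445). A further probe (A_55_P2729783) differed by -0.28 (limma adjusted p 0.520). At the third (A_52_P269143) the knockouts, at -1.33, -0.71 and -0.64, lay below the controls, at 0.38, -0.11 and 0.0040, but 3 of these 6 spots were outliers, and with them kept the difference of -0.98 did not pass (limma adjusted p 0.0659).

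The antagonists did not follow the pattern of Bmp4, Bmp5 and Bmp7 as a group. Grem1 (A_52_P481957), the Gremlin 1 gene of subcryptal stroma, gave 2.66, 2.59 and 2.70 (controls) against 0.91, 2.32 and 1.79 (knockouts). Every knockout was below every control, by least in knockout replicate 2, whose spot was an outlier like those of control replicate 1 and knockout replicate 1. With these spots kept the difference was -0.97 (SE 0.34), with a 95% interval of -1.79 to -0.15 and a limma adjusted p of 0.130. It was -0.59 without knockout replicate 1 and -1.29 without knockout replicate 2. Nog (A_51_P237040), which encodes Noggin, gave -3.27, -3.39 and -2.60 (controls) against -3.61, -2.12 and -2.17 (knockouts). The groups overlapped, with knockout replicate 1 lowest of all arrays, and the difference was 0.46 with a 95% interval of -0.60 to 1.51 (limma adjusted p 0.547).

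Chrdl1, encoding the chordin-like 1 antagonist, was measured by 3 probes, and the groups overlapped at each. The brightest (A_52_P674808) gave 0.78, 0.36 and -0.11 (controls) against 0.83, 0.55 and 1.00 (knockouts). Its difference was 0.45 with a 95% interval of -0.17 to 1.07 (limma adjusted p 0.311). The others differed by 0.19 (limma adjusted p 0.700) and 0.27 (limma adjusted p 0.674). None of the 3 passed.

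Whether an antagonist and a ligand differed by unlike amounts was asked by subtracting the Bmp4 value from the antagonist's value on each array, with the brighter Bmp4 probe and outlier spots kept. A level of this difference sets one probe against another and is not read; only its change from control to knockout is. For Grem1 the change was -0.43 (exact two-sided permutation p = 0.4, where 0.1 is the smallest that 3 against 3 arrays allow). With the dimmer Bmp4 probe, an alternative added after the data were seen, the change was 1.03 (exact permutation p = 0.1), so its direction depended on the Bmp4 probe. For Chrdl1 the change was 1.00 with the brighter and 2.45 with the dimmer probe, and the groups did not overlap in either case (exact permutation p = 0.1 each).

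**Figure D2:**
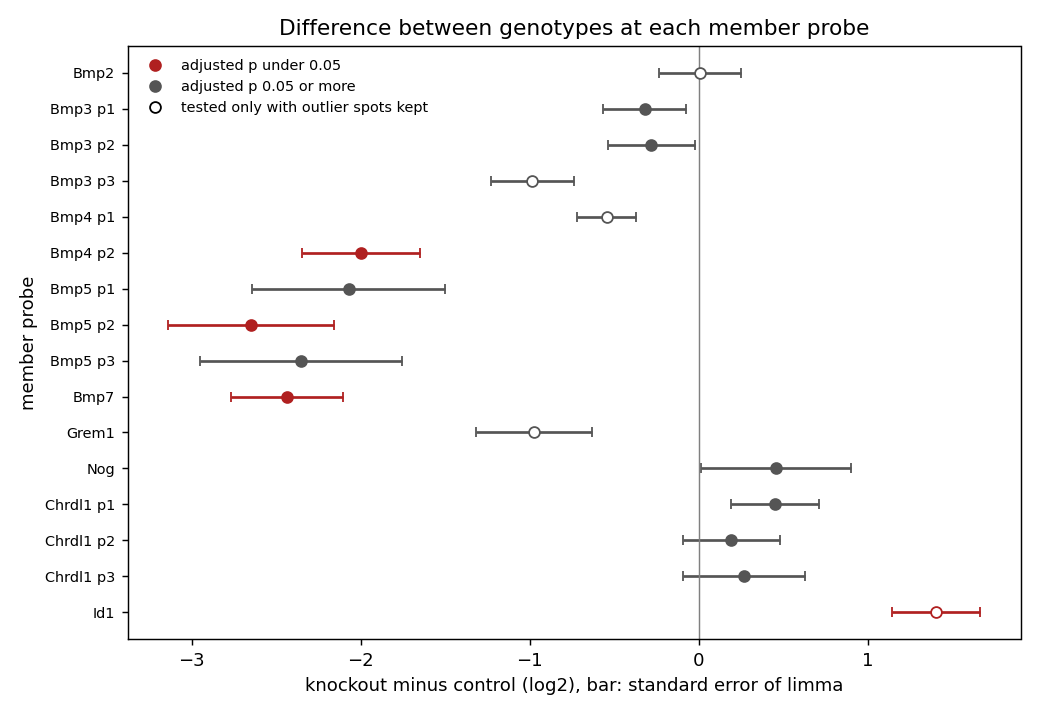
Knockout minus control on the log2 scale (horizontal axis) for each member probe (vertical axis), with the standard error of limma as bars; red marks a limma adjusted p under 0.05 and open points are probes tested only with outlier spots kept. Called falls are those of Bmp4 (-2.0), Bmp5 (-2.65) and Bmp7 (-2.43), and Id1 lies on the other side at 1.40.

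Id1, a helix-loop-helix inhibitor of differentiation and one of the most direct targets of BMP receptor signalling, differed in the direction opposite to Bmp4, Bmp5 and Bmp7. Its only probe (A_55_P2052563) gave 0.20, -0.05 and 0.51 (controls) against 1.73, 1.16 and 1.98 (knockouts). All knockouts lay above all controls. The spots of control replicate 1 and of knockout replicates 1 and 3 were outliers, which left 1 usable knockout, 1.16, and no test. With all spots kept, means were 0.22 ± 0.28 and 1.62 ± 0.42 (SD, n = 3 each), a difference of 1.40 (SE 0.26), or 2.64-fold higher, with a limma adjusted p of 0.0401. In that fit 2.40% of named genes had a probe called higher. The call was kept without knockout replicate 2 (1.63, limma adjusted p 0.0357). It was lost when control 1 (limma adjusted p 0.0516), control 2 (0.117), control 3 (0.0841), knockout 1 (0.105) or knockout 3 (0.108) was left out, with differences of 1.22 to 1.55.

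Across the 16 member probes, with outlier spots kept, the groups did not overlap at 8 where the knockout was lower and at 1 where it was higher. The 10 ligand probes accounted for 7 of the 8, and Grem1 for the other. Among all probes tested in the same way, 17.6% did not overlap with the knockout lower and 17.3% with the knockout higher. The knockout arrays were not alike at these genes. Knockout replicate 1 was the lowest of all 6 arrays at 9 of the 10 ligand probes, and at all 7 probes of Bmp4, Bmp5, Bmp7 and Grem1. Without it, the differences shrank to -1.59 at the dimmer Bmp4 probe, -2.06 at Bmp5 (A_51_P516637) and -2.05 at Bmp7, and all 3 were still called (limma adjusted p 0.0388, 0.0403 and 0.0301).

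The other genes of the pathway were taken from 5 lists of 65 genes on the array, of which 51 could be tested. Of these, 34 were lower and 17 higher in the knockout, with a median difference of -0.24, against 8029 lower, 8422 higher and a median of 0.01 over the 16451 named genes tested. At least 1 probe was called lower for 8 genes and higher for 1 gene (Smad4). Over all named genes tested, 3.20% had a probe called lower and 1.81% one called higher. The lists were chosen with earlier results known, so their counts are a description only. Counted over all genes of the lists and not only these 8, genes called lower numbered 6 when control 1 or knockout 2 was left out. They numbered 1 when knockout 1 was left out, a gene not among the 8, and 0 when control 2, control 3 or knockout 3 was.

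Bmp6, the near relative of Bmp5 and Bmp7, was the only one of the 8 further BMP-type ligands tested to pass. Its probe (A_52_P413646) gave -1.99, -2.50 and -2.55 (controls) against -4.31, -3.85 and -4.04 (knockouts), with no overlap. The difference was -1.72 (SE 0.22), or 3.29-fold lower (limma adjusted p 0.0260). The other 7, Bmp8b, Bmp10, Gdf3, Gdf5, Gdf7, Gdf10 and Gdf11, differed by -0.13 to 0.51 at their brightest tested probe, and the list's median was 0.16. All 4 of Bmp4, Bmp5, Bmp6 and Bmp7 were thus lower, whereas Bmp2, Bmp3 and these 7 were not called.

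Of 14 further extracellular modulators tested 11 were lower, with a median of -0.58, and 2 had a called probe: Bmp1 and Tll1, metalloproteases that cleave the antagonist chordin. The call of Bmp1 was at a dimmer probe (A_55_P2006698, -1.21, limma adjusted p 0.0441), while its brightest differed by -0.52 (0.125) and the last one by -0.03 (0.919). Tll1 likewise was called at its dimmer probe only (-1.57, limma adjusted p 0.0488; the other -0.15, 0.696).

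Among receptors, 11 were tested, 8 of them lower, with a median of -0.38. Acvr1, a type I receptor used by Bmp5, Bmp6 and Bmp7, was called at its dimmer probe (A_55_P2102693), which gave -0.91, -1.03 and -1.16 (controls) against -2.06, -1.83 and -1.71 (knockouts). This difference was -0.84 (SE 0.16, limma adjusted p 0.0468), and that of the brighter probe was -0.75 (SE 0.16, limma adjusted p 0.0543). Bmpr1a, the main type I receptor for Bmp2 and Bmp4, differed by -0.38 at its brightest probe (SE 0.14, limma adjusted p 0.151). Bmpr2, the type II receptor, had 4 outlier spots and differed by -0.11 with them kept (limma adjusted p 0.664).

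The intracellular part of the pathway moved in both directions. Smad6, an inhibitory SMAD induced by BMP, gave -1.57, -1.67 and -2.10 (controls) against -2.87, -2.93 and -2.78 (knockouts), a difference of -1.08 (SE 0.19, limma adjusted p 0.0390). Smad5, a receptor SMAD, was called lower at its dimmer probe (A_51_P452207, -1.03, limma adjusted p 0.0363) and not at its brighter one (-0.40, 0.291). Zfp423, a zinc-finger partner of BMP SMADs, was lower at its brighter probe, with a difference of -1.06 (limma adjusted p 0.0298). Smad4, the shared partner of BMP and TGF-beta SMADs, was higher at all 5 probes, by 0.34 to 1.04. Of the dimmer ones 2 were called (A_55_P2745195, 0.82, limma adjusted p 0.0446, and A_55_P2745667, 1.04, limma adjusted p 0.0466). Neither was called under median centring or with no filter on dim probes. Smad1 differed by 0.29 (limma adjusted p 0.404). Smad7 had 5 outlier spots at the probe above background and differed by 0.02 with them kept (limma adjusted p 0.986).

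**Figure D3:**
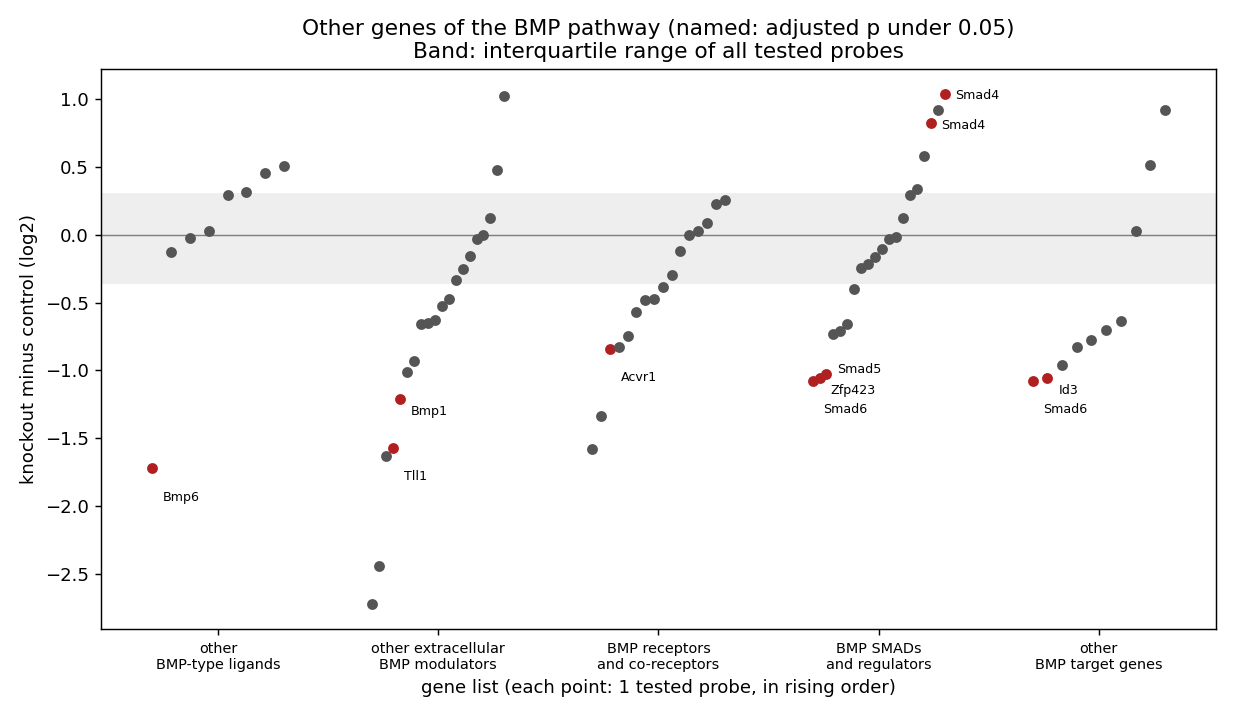
Knockout minus control on the log2 scale (vertical axis) of each tested probe of the other BMP pathway genes, in 5 lists (horizontal axis), in rising order within a list; red, named points have a limma adjusted p under 0.05, and the grey band is the interquartile range of all 35351 tested probes. Smad6 stands in both lists on the right, and Smad4 is the only gene with called probes above 0.

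The target genes split. Of 9 further targets tested 6 were lower, with a median of -0.70, and Id3 and Smad6 were called, both lower. Id3 (A_51_P380178), a close relative of Id1 and likewise a BMP target, gave 1.68, 1.76 and 1.88 (controls) against 0.65, 0.91 and 0.60 (knockouts). Its difference was -1.05 (SE 0.16), or 2.08-fold lower (limma adjusted p 0.0319). No knockout overlapped a control at Id3 or at Id1, and the genes moved in opposite directions; the contrast between them was noticed in the values and was not tested. Id2 had 4 outlier spots and differed by -0.22 with them kept (limma adjusted p 0.655), with overlapping groups.

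The calls of these pathway genes could be lost when a single array was left out, as those of the members could. Calls over all probes fell as well, from 1403 to 71, 90, 263 and 40 without control 2, control 3, knockout 1 and knockout 3. A lost call in the fits without these arrays therefore does not show that the values of 1 array made the difference. Without control 1, calls over all probes rose to 2114. In that fit the calls of Bmp4 (dimmer probe, limma adjusted p 0.0502) and Bmp5 (A_51_P516637, limma adjusted p 0.0579) were lost all the same. Each of Acvr1, Bmp1, Bmp6, Id3, Smad4, Smad5, Smad6, Tll1 and Zfp423 lost its call when any of control 2, control 3, knockout 1 and knockout 3 was left out, and Acvr1 and Bmp1 lost it in all 6 such fits. The limma adjusted p of these probes reached at most 0.154, at a Smad4 probe, and their differences kept their sign.

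**Figure D4:**
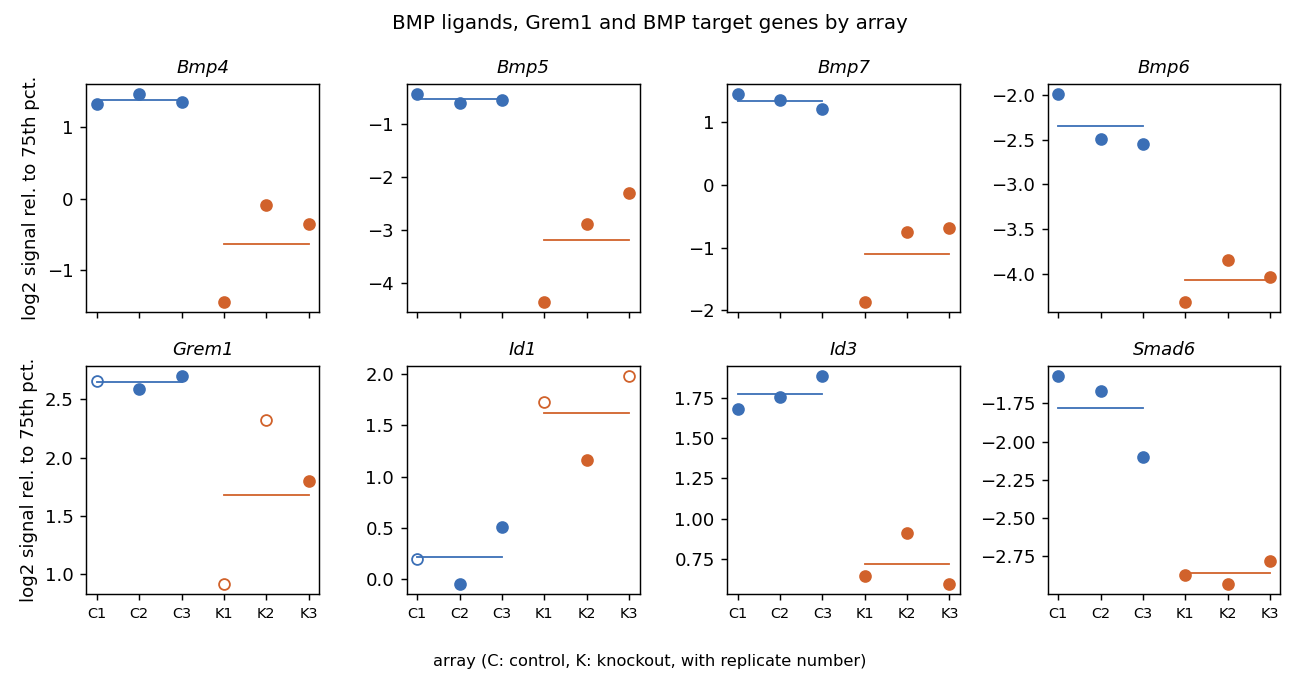
Log2 signal relative to the 75th percentile (vertical axes, each with its own range) on the 6 arrays (horizontal axis, C control and K knockout with replicate number) for 4 ligands, Grem1 and 3 target genes; lines are means of 3 arrays and open points are outlier spots. Bmp4, Bmp5, Bmp7, Bmp6, Id3 and Smad6 are lower in all knockouts than in all controls, and Id1 is higher.

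Colon is a mixture of cell types, and in such bulk RNA fewer cells of a type and less RNA per cell cannot be told apart. The label of the tissue was borne out by 12 of 12 colon epithelial markers well above background on all arrays. At an unadjusted limma p under 0.05, given below beside the calls, 14.1% of all 35351 tested probes were lower and 12.8% higher. These are shares of probes, whereas the counts below are of genes with at least 1 such probe. A gene with several probes has more than 1 chance to be counted, so the counts and the shares are not on the same footing. Markers of the BMP-producing subepithelial fibroblasts called telocytes were lower at 8 of 9 genes, with a median of -0.63, and 0 of the 9 were called in limma (4 at an unadjusted p under 0.05, all lower; 1 called with outlier spots kept). With only probes well above background on all 6 arrays, 7 of these genes were tested and 6 were lower, with a median of -0.56. Of these 7, 2 were lower at an unadjusted p under 0.05 and 0 were called. The summed signal of the telocyte markers, in multiples of the array's 75th percentile, was 15.9 to 19.2 in controls and 7.72 to 14.8 in knockouts, lowest in knockout replicate 1. Such sums, here and below, take in outlier spots and also genes that could not be tested with those spots removed. Pan-fibroblast markers were lower at all 7 genes tested, with sums of 48.5 to 54.1 and 30.8 to 42.1, and Pdgfrb was called (-1.17, limma adjusted p 0.0395, lost when any 1 array was left out). Markers of Grem1-type fibroblasts had sums of 24.9 to 27.6 and 27.2 to 28.9, with 4 of 6 lower, a median of -0.31 and 0 called in limma (1 lower at an unadjusted p under 0.05). Their part in the differences of the BMP genes was not tested.

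Other cell types moved as well. Over all named genes tested, 3.20% had a probe called lower and 1.81% one called higher. At an unadjusted limma p under 0.05, 14.1% of all tested probes were lower and 12.8% higher, shares of probes and not of genes. Colon epithelium was higher at 10 of 10 genes tested (sums of 21.6 to 75.9 in controls and 88.0 to 114.5 in knockouts) and smooth muscle at 8 of 8 (54.1 to 67.2 and 74.4 to 86.2), with 0 genes called in limma in either (3 and 4 higher at an unadjusted p under 0.05). Endothelium was lower at 7 of 7 (11.1 to 12.3 and 3.53 to 7.53), enteric neurons and glia at 6 of 6 (12.7 to 13.3 and 9.48 to 11.6) and macrophages at 5 of 6 (26.5 to 33.4 and 20.5 to 25.8), with 0 called in limma (6, 3 and 4 lower at an unadjusted p under 0.05). Neutrophil markers were lower at 6 of 8 (29.7 to 30.9 and 19.7 to 20.5), with 5 called, the lowest p being those of Retnlg (-4.47, limma adjusted p 0.0173), Cxcr2 (-1.93, 0.0211) and S100a9 (-3.73, 0.0245). With only probes well above background on all 6 arrays, 5 of 7 neutrophil genes were lower and 4 were called. Skeletal muscle markers were higher at 6 of 8 (4.13 to 5.48 and 9.95 to 14.8), with Tnni1 (3.72, limma adjusted p 0.0184) and Myh2 called, the latter well above background on 3 arrays only. Squamous markers of the anal canal were higher at 5 of 6 (8.33 to 10.8 and 11.6 to 15.5), with Tgm3 called (4.41, limma adjusted p 0.0302). That value is from the brighter of 2 Tgm3 probes. With the probes of each gene averaged, the largest difference in the squamous list was 2.75. Leaving out knockout 3 ended the calls of Retnlg, Cxcr2, S100a9, Tgm3 and Tnni1, and leaving out control 2 those of Cxcr2, S100a9, Tgm3 and Tnni1, while Retnlg, with an outlier spot in control 1, could not be fitted without control 2 or control 3; leaving out control 3 also ended those of Cxcr2, S100a9 and Tgm3, and knockout 1 those of Cxcr2 and Tgm3. A sum is led by the brightest genes of its list, and the part of these cell types in the BMP genes' differences was not tested.

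**Figure D5:**
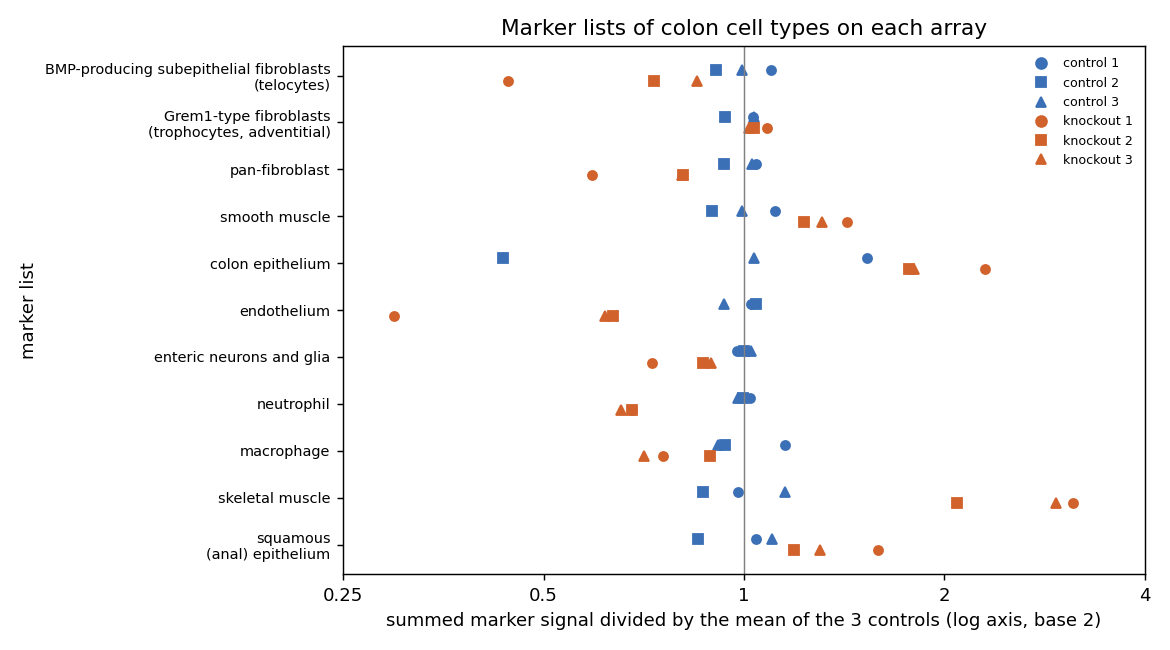
Summed marker signal of each list on each array, divided by the mean of the 3 controls (horizontal log axis, base 2), for 11 lists of cell type markers (vertical axis); colour gives the genotype and shape the replicate. Knockout replicate 1 is lowest for telocytes, pan-fibroblast markers, endothelium and enteric neurons and glia, and the Grem1-type fibroblast list shows overlapping groups. The same array is highest for colon epithelium, smooth muscle, skeletal muscle, squamous and Grem1-type fibroblast markers.

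The genes whose profile over the 6 arrays was most like that of a member, by Pearson's r with outlier spots kept, were Krit1 (0.997), Plau (0.995) and Vasn (0.995) for the brighter Bmp4 probe. They were Mmp3 (0.998), Hlx (0.996) and Mtmr3 (0.996) for Grem1, and Stfa3 (0.998), Plekhm1 (0.997) and Slc45a3 (0.996) for Id1. With 6 arrays in 2 genotypes, such values are a description of likeness among 40172 probes and carry no test.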

How the data were processed

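Each scanner file was made by the authors with Agilent Feature Extraction 11.5.1.1 and holds 1 red channel, per the file headers; the labels name version 10.7, Cy3 and a green column. The deposited processed signal is an intensity, background-subtracted and not scaled between arrays. The software's flags (well above background, outlier, saturated) are deposited beside it as 0 or 1. No spot was saturated.

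Log2 signals were set against each array's 75th percentile, outlier spots were removed and spots of a probe averaged. Probes well above background on all 3 arrays of a group, with at least 2 usable values in each, entered a linear model (limma 3.58.1 in R 4.3.3, moderated with eBayes) with Benjamini-Hochberg adjustment at 5%, 35351 in all. On simulated data over 35351 probes, 8% of changes of 1 and 72% of changes of 2 (log2) were recovered, with 8 of 88 calls false. With 3 arrays a group, their number limits the precision.

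Names came from RefSeq accessions (GRCm38.p6, 59.7% of probes); probe coordinates, on mm9, were not used. Named genes were all members, Islr, pathway genes that were called or named in the design (1 of them is not reported here), up to 3 called genes per marker list, and the 3 genes most like Bmp4, Grem1 and Id1. In list counts the brightest tested probe stood for a gene. Members and lists were chosen with earlier results of these data known. Alternatives were other background correction and scaling, filters, outlier spots kept, array weights, the series value table and leaving out each array.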

Additional observations from a re-analysis of the deposited data

How the results depend on the processing

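Over all probes, 1403 were called; 2773 were called with normexp on the median spot signal and quantile normalization, 2249 with median centring, 2185 with quantile normalization, 484 with no filter on dim probes and 9292 with array weights. Leaving out 1 array gave 40 (without knockout 3) to 2114 (without control 1) calls; with outlier spots kept it gave 120 and 3185 for the same arrays, 178 without control 2, 278 without control 3 and 378 without knockout 1. The number of members called lower (3) was 1 with no filter, and 0 to 3 when 1 array was left out, with outlier spots removed or kept. The number called higher (0) was 1 with outlier spots kept and 0 to 1 when an array was left out as well. Of the pathway lists, 8 genes were called lower, against 3 with no filter on dim probes and 19 with array weights. With no filter, none of the further extracellular modulators or receptors was called. Islr differed by -2.58 to -2.34 over the 4 fits possible with 1 array left out (none without control 2 or control 3), and by -2.69 to -2.44 over 6 fits with outlier spots kept. The change of Grem1 minus Bmp4 was 1.03 and that of Chrdl1 minus Bmp4 2.45 with the dimmer Bmp4 probe; leaving out 1 array gave -0.74 to -0.16 and 0.71 to 1.22. Normexp on the mean spot signal was not run, as the median signal was used in its place. Normexp on the median signal, the dimmer Bmp4 probe and leaving out arrays with outlier spots kept were chosen after seeing the data. Replicate numbers name animals and pair none. No value of Bmp4 (dimmer probe), Bmp5 or Bmp7 changed sign in the alternatives run. Id1 also kept its sign, but it was fitted only with outlier spots kept, on all arrays or with 1 left out. It was not fitted with the other scalings, filters or array weights.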

Other observations

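With outlier spots kept, further extracellular BMP modulators passed the threshold. Fst, encoding the activin and BMP binding protein follistatin, differed by -2.72 (limma adjusted p 0.0490, and 0.0527 with outlier spots removed). Bmper, encoding a BMP-binding endothelial regulator, differed by -2.53 (limma adjusted p 0.0446) with the spot of control replicate 1 kept and by -2.44 (0.0794) without it. A dimmer probe of Vwc2, which encodes a secreted BMP antagonist, was higher by 1.03 (limma adjusted p 0.0499, and 0.0529 with outlier spots removed). These calls were fragile: with outlier spots kept, that of Vwc2 was lost when any 1 array was left out. That of Fst held only when knockout 1 or knockout 2 was left out (limma adjusted p 0.0328 and 0.0456), and that of Bmper only when knockout 1 was (0.0328).

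Values that did not pass but whose groups did not overlap included Sostdc1, a secreted BMP and Wnt antagonist, at -1.63 (limma adjusted p 0.0872), Eng, an endothelial co-receptor, at -1.58 (0.0636), and Bambi, a decoy receptor, at -0.83 (0.209). Among all tested probes with outlier spots kept, 17.6% likewise did not overlap with the knockout lower, so this sets these genes little apart. At Eng and Bambi the spread among knockouts (SD 0.77 at each, n = 3) was wider than that among controls (SD 0.14 and 0.039, n = 3).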
